A study of Mus musculus with 12 samples.

Results

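Chondroitin sulfate and heparan sulfate are long sulfated sugar chains carried by proteoglycan core proteins at the cell surface and in the matrix. Both chains start from the same linker, which is built on a serine of the core protein by xylosyl-, galactosyl- and glucuronosyltransferases. The first hexosamine added then decides the type: N-acetylgalactosamine starts chondroitin sulfate and N-acetylglucosamine starts heparan sulfate, after which separate polymerases, sulfotransferases and epimerases finish each chain. In mammary tumour cells the syndecans, which span the membrane, and the glypicans, which are held by a lipid anchor, are the main surface cores for heparan sulfate, and they act as co-receptors for growth factors.

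The genes of this pathway were followed in 2 mouse mammary tumour cell lines, 4T1 and EMT6, each as wild-type control cells and as knockout (KO) cells made with a guide RNA against Nedd4, which encodes a HECT-type ubiquitin ligase. Cells of all groups were cultured in DMEM with fetal bovine serum and carry no other labelled edit or treatment. Poly(A) RNA was sequenced from 3 libraries in each of the 4 groups, 12 in all. The labels leave unsaid whether the KO cells are 1 clone or a pool, what guide the controls received, and whether replicates were grown apart. Of the 56691 genes in the tables, 41 were taken by symbol: 6 linker enzymes, 15 chondroitin enzymes (6 for the chain, 9 for sulfation and epimerization), 13 heparan enzymes (5 for the chain, 8 for modification), 4 syndecans and 3 glypicans. The set was chosen by pathway, with no threshold on a measured value, but it was compiled with results of the KO comparisons of both lines in view. The KO changes of the members are therefore given as a description of this set.

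The libraries held between 13705612 and 19761604 counted reads on genes, so that 3 counts equalled 0.152 to 0.219 CPM, counts scaled to library size. Levels below are in FPKM, the deposited values per kilobase of exon and per library size, which can be compared between genes. Changes are log2 values of KO relative to control, given with the fit's standard error, from edgeR's quasi-likelihood test on the counts; a gene was called when its adjusted p (Benjamini-Hochberg over all genes tested) was under 0.05. The fit scales libraries by trimmed means, and in 4T1 it placed KO lower than the FPKM values do: with total counts alone as the scale, the median of all 4T1 genes moved by 0.08. Nedd4 itself fell from 95.2 ± 2.14 to 25.0 ± 0.296 FPKM (SD, n = 3) in 4T1 and from 120 ± 3.19 to 11.9 ± 0.365 FPKM in EMT6, so transcript was still present in the KO cells of both lines. Of 7 epithelial markers, 6 had counts in every group, and their summed level was 1880 to 1950 FPKM in 4T1 control and 1350 to 1430 FPKM in 4T1 KO libraries. Krt8 and Krt18 made up most of that sum: in 4T1 Epcam (-1.13), Krt8 (-0.79), Krt18 (-0.43) and Krt19 (-0.15) were called lower in KO cells, while Krt14 (-0.30, adjusted p = 0.186) and Cdh1 (-0.01, adjusted p = 0.813) were not called. In EMT6 the sum was 348 to 415 FPKM in control and 378 to 392 FPKM in KO libraries, led by Krt8. Within it Krt8 was called higher in KO cells (0.26) and Krt18 (-1.23), Epcam (-1.59) and Krt14 (-3.15) lower, while the defining junction gene Cdh1 was at 0 to 0.02 FPKM. The sum of 5 fibroblast markers was 4.88 to 5.83 FPKM in 4T1, and in EMT6 it was 351 to 381 FPKM in control and 503 to 574 FPKM in KO libraries, led by Col1a2 and Col1a1. In EMT6 KO cells these collagen genes were called higher (0.70 and 0.30), while Pdgfra was called lower (-0.20, adjusted p = 0.0387). Pdgfra made up most of the 4T1 sum and was alike in the control cells of 4T1 (5.25 FPKM) and EMT6 (5.55 FPKM). Dcn and Lum were at or near 0 in every group. The 7 leukocyte markers summed to at most 1.1 FPKM in any library and the 4 endothelial markers to at most 0.64 FPKM. The part of the epithelial marker and collagen shifts in the changes below was not tested. In bulk RNA fewer cells of a kind and less RNA per cell cannot be told apart.

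Most of the pathway was transcribed in both lines. A mean of at least 1 FPKM was reached by 31 of the 41 members in 4T1 control, 31 in 4T1 KO, 31 in EMT6 control and 32 in EMT6 KO cells, and 8 members were under 1 FPKM in all 4 groups. Chsy3 (a chondroitin synthase), Chst15 (which adds a second sulfate to chondroitin 4-sulfate) and Hs6st2 (a heparan 6-O-sulfotransferase) had 0 counts in all 12 libraries, which allows up to 3 counts in each. The annotated span of Chst15 overlaps that of Fgfr2, a gene on the same strand with 12271 counts. Shared exons were not checked, so the Chst15 count may depend on how reads on both genes were assigned. Xylt1, the alternative xylosyltransferase, had 2 counts in all and Hs3st3b1, a heparan 3-O-sulfotransferase, had 2.

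**Figure D1:**
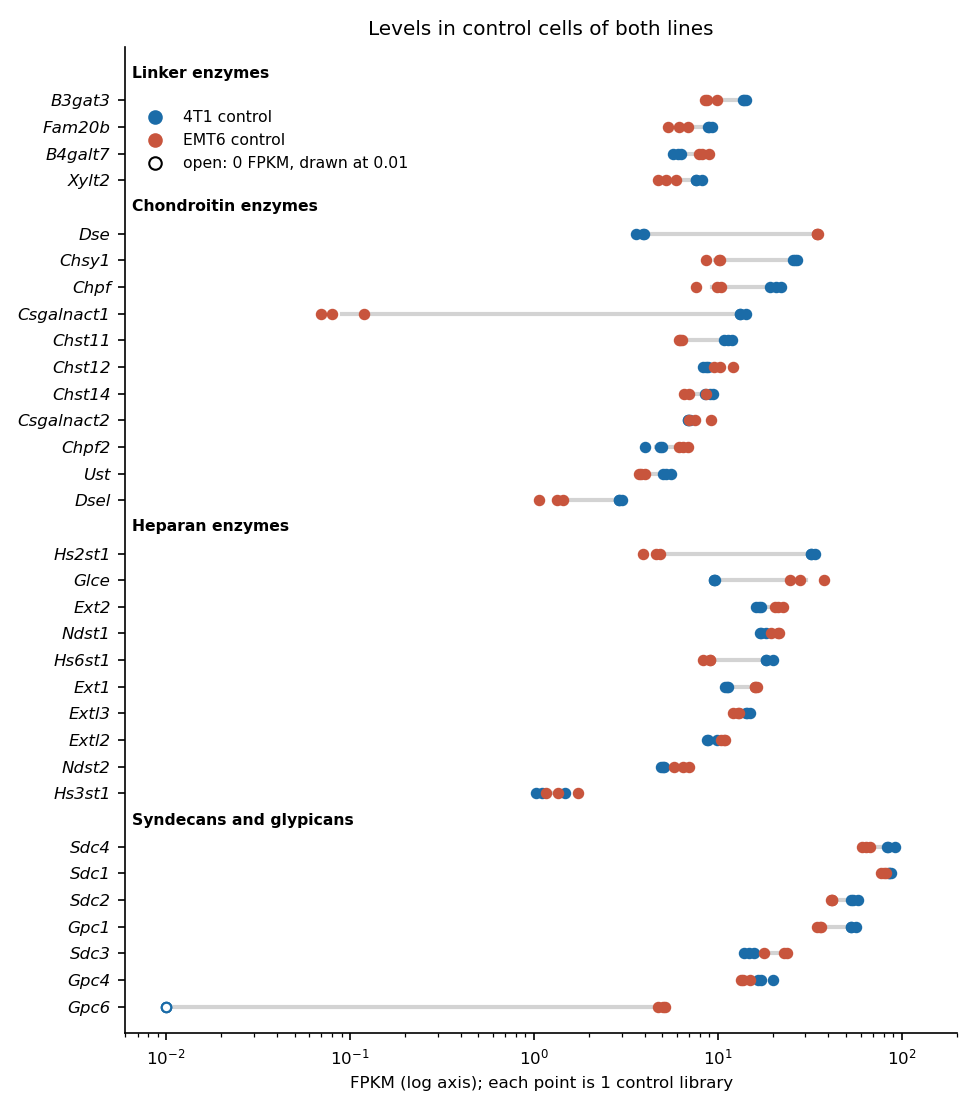
Levels in wild-type control cells of the 32 members that averaged at least 1 FPKM in the control cells of either line, 1 point per library on a log axis in FPKM (4T1 blue, EMT6 red, open at 0.01 for a level of 0). The widest gaps are those of Csgalnact1, Dse, Hs2st1 and Gpc6.

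Transcript levels of many members already differed between the control cells of the lines, as did those of most genes tested. The order of core levels was alike: Sdc4 (86.5 ± 4.99 FPKM), Sdc1 (86.0 ± 1.34), Sdc2 (55.2 ± 2.69) and Gpc1 (54.3 ± 1.80) led the members in 4T1 control cells, and Sdc1 (79.8 ± 2.73), Sdc4 (64.1 ± 2.96), Sdc2 (41.7 ± 0.340) and Gpc1 (35.7 ± 0.714) led them in EMT6. In 4T1 the neighbours Sdc4 and Sdc1, and Sdc2 and Gpc1, lay within their spread; in EMT6 these neighbours were separated. Of 35 members tested between the control cells in a fit of all 12 libraries, 13 were higher in EMT6, against a background of 37.5% of all genes tested, and 18 were lower, against 37.2%. The count of members called higher was thus near the share of all genes. Among chondroitin enzymes 4 were higher and 7 lower in EMT6 of 12 tested (median log2 difference -0.61), and among heparan enzymes 6 were higher and 3 lower of 11 (median 0.27), beside a median of 0 over all genes. The difference between the 2 classes was not tested.

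Csgalnact1 (ENSMUSG00000036356), which adds the first N-acetylgalactosamine and so commits a chain to chondroitin sulfate, had 1175, 1013 and 928 counts in the 4T1 control libraries and 5, 7 and 12 in those of EMT6. The level was 145-fold lower in EMT6 (log2 -7.18 ± 0.15, adjusted p = 2.96e-26). Its paralogue Csgalnact2 was at similar levels in both, 6.93 ± 0.0907 FPKM in 4T1 and 7.89 ± 1.16 FPKM in EMT6. Csgalnact2 was called between the lines (adjusted p = 0.0252), but not without EMT6 control replicate 3 (adjusted p = 0.298), 4T1 control replicate 1 (0.0680) or 4T1 control replicate 3 (0.0614), in DESeq2 (0.0951) or with total counts as the only scale (0.0557). Dse, a dermatan sulfate epimerase that turns glucuronic into iduronic acid within chondroitin, had 3.95, 3.92 and 3.59 FPKM in 4T1 control and 34.82, 34.65 and 35.06 FPKM in EMT6 control libraries, 9.28-fold higher in EMT6 (adjusted p = 5.79e-26). The second epimerase gene, Dsel, went the other way, at 2.95 ± 0.0666 FPKM in 4T1 and 1.28 ± 0.190 FPKM in EMT6 (log2 -1.18, adjusted p = 4.02e-10).

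On the heparan side, Hs2st1, the only uronyl 2-O-sulfotransferase of heparan sulfate, had 32.11, 33.65 and 32.21 FPKM in 4T1 control and 4.83, 4.64 and 3.93 FPKM in EMT6 control libraries, 7.20-fold lower in EMT6 (log2 -2.85 ± 0.06, adjusted p = 9.62e-26). Glce, the epimerase that acts just before it, was 3.20-fold higher in EMT6 (log2 1.68 ± 0.15, adjusted p = 3.82e-06). The polymerase subunits Ext1 and Ext2 were higher in EMT6 by 0.55 and 0.39 on the log2 scale, and Hs6st1 was 2.11-fold lower. The glypican gene Gpc6 had 0 counts in all 6 libraries of 4T1 and 1657 counts over the 3 EMT6 control libraries, which is at least 478-fold higher than 3 counts over the 4T1 control group.

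In 4T1 cells KO went with lower levels of several syndecan, linker and chondroitin chain genes, while in EMT6 most members tested were higher in KO cells. In 4T1, 33 of 41 members passed the low-count filter, of which 5 were called higher, beside 28% of all 13313 genes tested, and 14 were called lower, beside 29%. With total counts as the only scale the split of the members was 8 higher and 10 lower, and that of all genes went from 3725 higher and 3864 lower to 4658 higher and 2949 lower. In EMT6, 33 members passed the filter, of which 26 were called higher, beside 27.9% of all 12890 genes tested, and 2 were called lower, beside 28.2%. The median change of the tested members was -0.11 in 4T1 and 0.49 in EMT6, against 0 for all genes in each line. The 4T1 median was small and unsteady, at -0.07 without control replicate 1 and -0.04 with total counts as the only scale. A low-count filter can be passed through the KO group alone, as Chst3 did in EMT6, and the members under the filter had no count large enough to test.

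**Figure D2:**
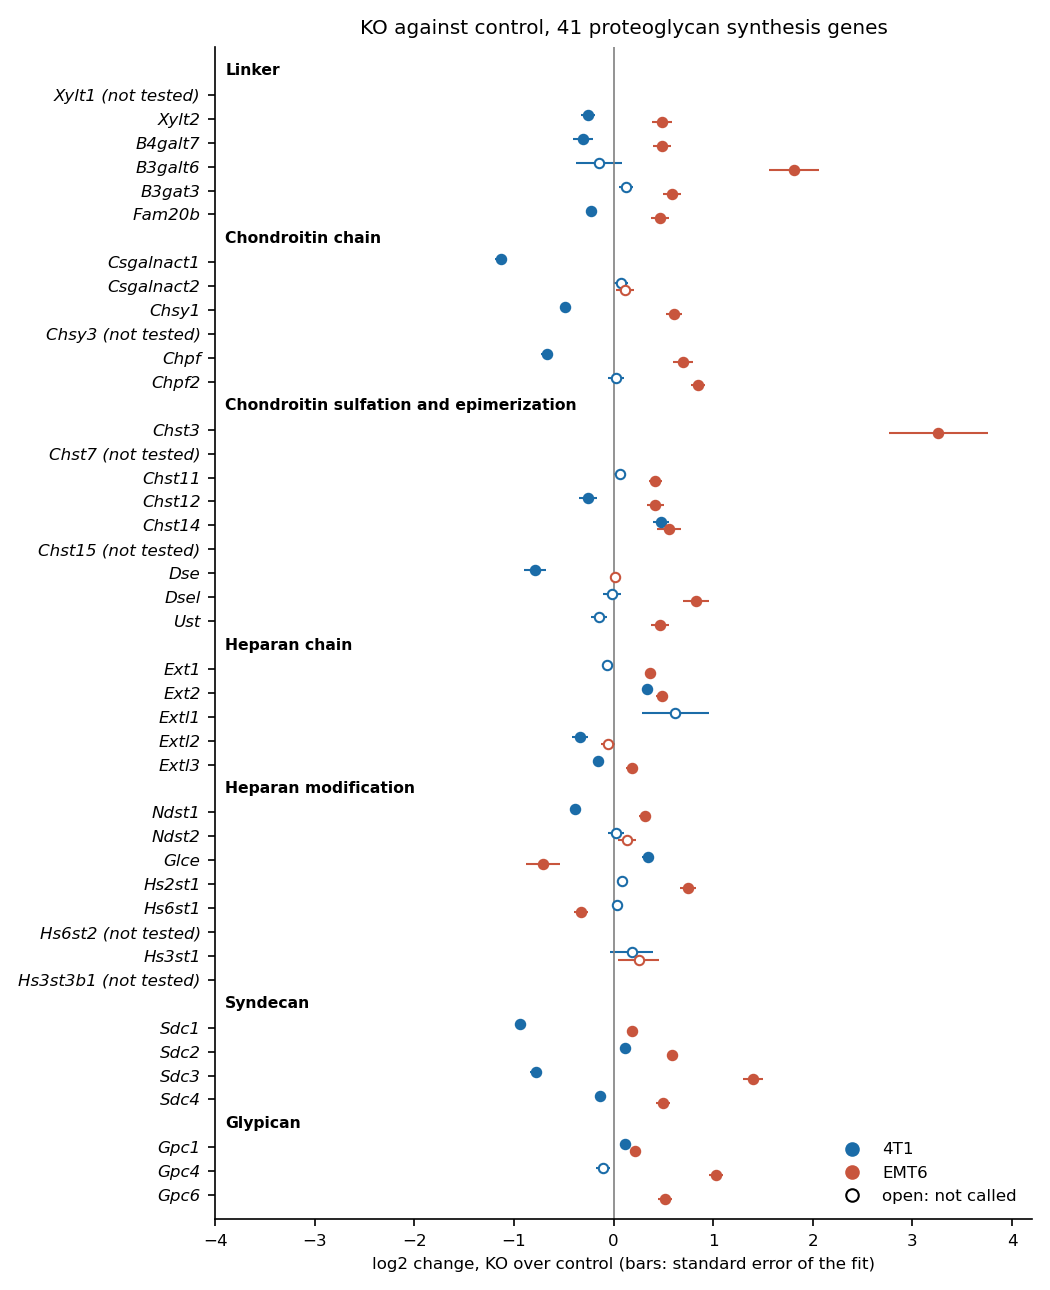
Log2 change between KO and control cells for the 41 members by role, bars giving the edgeR fit's standard error (4T1 blue, EMT6 red, open where not called). EMT6 points lie to the right of 0 for all members but Extl2, Glce and Hs6st1 among those tested, and 14 of the 33 4T1 points are called lower.

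By class, the 11 chondroitin enzymes tested in 4T1 comprised 1 higher, 5 lower and 5 not called (median -0.15). The 11 heparan enzymes comprised 2 higher, 3 lower and 6 not called (median 0.03). Both 4T1 medians moved with the libraries and the scale: with 1 library left out the chondroitin median ran from -0.21 (without KO replicate 2) to -0.10 (without control replicate 2), and the heparan median from 0.01 (without KO replicate 3) to 0.07 (without KO replicate 1). With total counts as the only scale they were -0.07 and 0.11, and without the low-count filter the heparan median was -0.01. In EMT6 the 11 chondroitin enzymes tested comprised 9 higher, 0 lower and 2 not called (median 0.56, lowest 0.01), and the 10 heparan enzymes 5 higher, 2 lower and 3 not called (median 0.22, and 0.13 without control replicate 3). The 9 chondroitin enzymes called higher include Chst3, which passed the filter through the KO group alone. DESeq2, the other tool run, also called 0 chondroitin enzymes lower in EMT6, but on the same counts, so this is no separate support. All 5 linker enzymes tested were higher in EMT6 KO cells, while 3 of 5 were lower and 2 were not called in 4T1. All 7 core genes were higher in EMT6 KO cells, and in 4T1 2 of 6 were higher, 3 lower and 1 not called. Of all genes tested, 28% were called higher and 29% lower in 4T1, and 27.9% and 28.2% in EMT6. The heparan counts of 4T1 did not exceed these shares. These class counts are not independent of how the set was compiled, and no test between the classes was made.

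The change itself was compared between the lines by the interaction term of the fit of all 12 libraries, given as the EMT6 change minus the 4T1 change. Of 35 members tested, 24 had a higher change in EMT6, beside 26.8% of all 14301 genes tested, and 3 had a lower one, beside 26.6%. The median difference was 0.65 over the members and -0.01 over all genes. The member values include Gpc6, which had 0 counts in all 4T1 libraries, so its difference could not be estimated. Included here and in the class values are Csgalnact1 and Extl1, with few counts in EMT6. Chst3, with few counts in 4T1 and in EMT6 control cells, is included as well. Among chondroitin enzymes 9 of 12 had a higher change in EMT6 and 0 a lower one (median 0.82, lowest 0.05), and among heparan enzymes 5 of 11 had a higher and 3 a lower one (median 0.16, but 0.26 without EMT6 control replicate 2 and 0.08 with total counts as the only scale). Called directions were opposite for 12 members, 11 of them lower in 4T1 and higher in EMT6 and 1, Glce, the reverse. The difference was called for all 12, which follows almost of itself from opposite calls and is no further support. The 11 were Xylt2, B4galt7 and Fam20b of the linker, Chsy1, Chpf and Chst12 of chondroitin, Extl3 and Ndst1 of heparan, and Sdc1, Sdc3 and Sdc4. Another 4, Chst14, Ext2, Sdc2 and Gpc1, were higher in both lines, and 9 were not called in 4T1 and higher in EMT6. No shares of all genes with such pairs of calls are given beside these counts. The counts therefore do not show whether such pairs were more common among the members than among all genes. The 4T1 calls of B4galt7, Chst12, Extl3, Sdc4, Glce, Sdc2 and Gpc1 were each lost in at least 1 alternative setting.

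The start regions of 3 of the 11 genes with opposite calls are shown because the data describe their transcript levels and the promoter is where transcription starts. RefSeq windows were matched by symbol for 32 of the 41 members (37 windows, since 5 members have 2). The 3 windows printed are those with the largest differences in change that hold no annotated exon, a choice made after the values were seen. Each is the 250 bases before the start, 5′ to 3′ on the plus strand of GRCm38.p6, for Sdc3 at chr4:130792287-130792536, for Chsy1 at chr7:66109242-66109491 and for B4galt7 at chr13:55599646-55599895. Capitals mark the GC box, GGGCGG or its complement, a motif bound by Sp-family factors.
Sdc3: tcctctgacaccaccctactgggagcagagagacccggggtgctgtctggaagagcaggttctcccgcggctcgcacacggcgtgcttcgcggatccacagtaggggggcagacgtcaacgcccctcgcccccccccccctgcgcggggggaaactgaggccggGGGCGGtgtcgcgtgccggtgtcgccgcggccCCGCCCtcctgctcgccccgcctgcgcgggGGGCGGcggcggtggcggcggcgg
Chsy1: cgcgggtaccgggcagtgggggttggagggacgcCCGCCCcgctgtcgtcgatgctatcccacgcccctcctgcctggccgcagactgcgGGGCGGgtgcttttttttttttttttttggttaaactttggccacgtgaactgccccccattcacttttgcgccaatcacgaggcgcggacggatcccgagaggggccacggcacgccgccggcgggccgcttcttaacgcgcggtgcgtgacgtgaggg
B4galt7: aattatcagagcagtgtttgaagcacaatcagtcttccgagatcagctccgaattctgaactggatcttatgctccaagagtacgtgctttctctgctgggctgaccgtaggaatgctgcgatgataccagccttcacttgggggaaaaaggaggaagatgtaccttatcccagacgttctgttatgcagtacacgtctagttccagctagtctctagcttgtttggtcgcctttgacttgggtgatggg
Sdc3 held 3 GC boxes, Chsy1 held 2 with 1 E-box (CACGTG) in lower case, and B4galt7 held 0. Over windows that run 50 bases further, past the start, the GC box was found on either strand in 26 of 37 member windows (70.3%), against 35.7% of all 32851 windows in the RefSeq table. It was in 13 of 16 windows of chondroitin enzymes (81.2%) and in 7 of 12 of heparan enzymes (58.3%). Syndecans and glypicans had it in 4 of 4 windows, and linker enzymes in 2 of 5 (40%), near the share of all windows. The TATA motif TATAAA was in 2.70% of member windows against 13.6% of all, the AP-1 motif TGANTCA in 2.70% against 7.81%, and CACGTG in 10.8% against 7.15%. These matches are a description of letters, and windows of 1 gene can overlap. The background of all windows was not matched for G and C content, which ran from 48.3% to 80.3% in member windows. Nor was it matched for expression, and members without counts, such as Chst15, are included.

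The linker enzymes act first on every chain. Xylt2, the xylosyltransferase that starts the linker, was at 7.79 ± 0.361 FPKM in control and 6.85 ± 0.210 FPKM in KO cells of 4T1 (log2 -0.26 ± 0.07, adjusted p = 0.00400), and at 5.29 ± 0.588 and 7.44 ± 0.587 FPKM in EMT6 (0.49 ± 0.10, adjusted p = 0.000464). B4galt7, which adds the first galactose, changed by -0.31 ± 0.10 in 4T1 and 0.49 ± 0.09 in EMT6. Its 4T1 call was lost without KO replicate 1 (adjusted p = 0.0654) and with total counts as the only scale (0.0588). Fam20b, the kinase that phosphorylates the xylose, changed by -0.23 ± 0.05 and 0.47 ± 0.09. B3gat3, which adds the closing glucuronic acid, was called in EMT6 (0.59 ± 0.09) and not in 4T1 (0.12, adjusted p = 0.143), where total counts as the only scale gave a call (0.20, adjusted p = 0.0196). B3galt6, which adds the second galactose, was lowly expressed, with 0.42, 0.34 and 0.28 FPKM in EMT6 control and 1.23, 1.11 and 1.28 FPKM in EMT6 KO libraries. Those levels rest on 17 to 20 counts in a control and 64 to 76 counts in a KO library, and the groups did not overlap. Overlap is described gene by gene, here and below, without the share of all genes that did not overlap. It rose 3.51-fold (log2 1.81 ± 0.25, adjusted p = 1.32e-05) in EMT6, and in 4T1 it was not called, with 1.13, 0.71 and 1.01 FPKM in control and 0.72, 1.07 and 0.93 FPKM in KO libraries.

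Among the enzymes that start and extend chondroitin, Csgalnact1 changed most in 4T1. Its level was 14.28, 13.28 and 13.29 FPKM in 4T1 control and 6.51, 6.47 and 6.73 FPKM in KO libraries, so that every KO library was below every control. It fell 2.19-fold (log2 -1.13 ± 0.06, adjusted p = 1.09e-13). In EMT6 it was too low for the test, at 24 counts over the control and 31 over the KO libraries. The difference in change (1.42 ± 0.38, adjusted p = 0.00219) was lost without EMT6 KO replicate 1 (1.00, adjusted p = 0.0800). Csgalnact2 was not called in either line (0.07 in 4T1, adjusted p = 0.406, and 0.11 in EMT6, adjusted p = 0.313), and without EMT6 control replicate 3 it was called in EMT6 (0.23, adjusted p = 0.0116).

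Chsy1 (ENSMUSG00000032640), a chondroitin synthase with both polymerizing activities, had 27.13, 25.57 and 26.16 FPKM in 4T1 control and 20.67, 19.38 and 19.05 FPKM in 4T1 KO libraries. In EMT6 it had 8.64, 10.29 and 10.21 FPKM in control and 15.29, 14.82 and 14.30 FPKM in KO libraries. The groups did not overlap in either line, and the KO cells of the lines were closer in level than the control cells. The change was -0.49 ± 0.05 in 4T1 and 0.61 ± 0.08 in EMT6, and the difference was 1.11 ± 0.09 (adjusted p = 8.88e-11). Chpf, the polymerizing factor that pairs with the synthase, had 22.08, 19.19 and 20.85 FPKM in 4T1 control and 14.28, 13.71 and 13.22 FPKM in 4T1 KO libraries, and 9.90, 10.45 and 7.64 FPKM in EMT6 control and 14.70, 15.67 and 14.89 FPKM in EMT6 KO libraries. It fell in 4T1 (-0.67 ± 0.06) and rose in EMT6 (0.70 ± 0.10), to KO levels of 13.7 ± 0.531 and 15.1 ± 0.514 FPKM, and the difference was 1.38 ± 0.12 (adjusted p = 4.32e-10). Chpf2, its paralogue, had 4.85, 4.03 and 5.00 FPKM in 4T1 control, 4.72, 4.95 and 5.14 FPKM in 4T1 KO, 6.47, 6.86 and 6.15 FPKM in EMT6 control and 11.66, 11.45 and 11.98 FPKM in EMT6 KO libraries. It rose in EMT6 alone among the calls (0.85 ± 0.07, adjusted p = 3.43e-08, and 0.02 in 4T1, adjusted p = 0.880), and the difference was called (0.84, adjusted p = 1.62e-07). The annotated span of Chpf2 overlaps that of Smarcd3 on the opposite strand, and no source used here gives the strand setting of the counting.

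**Figure D3:**
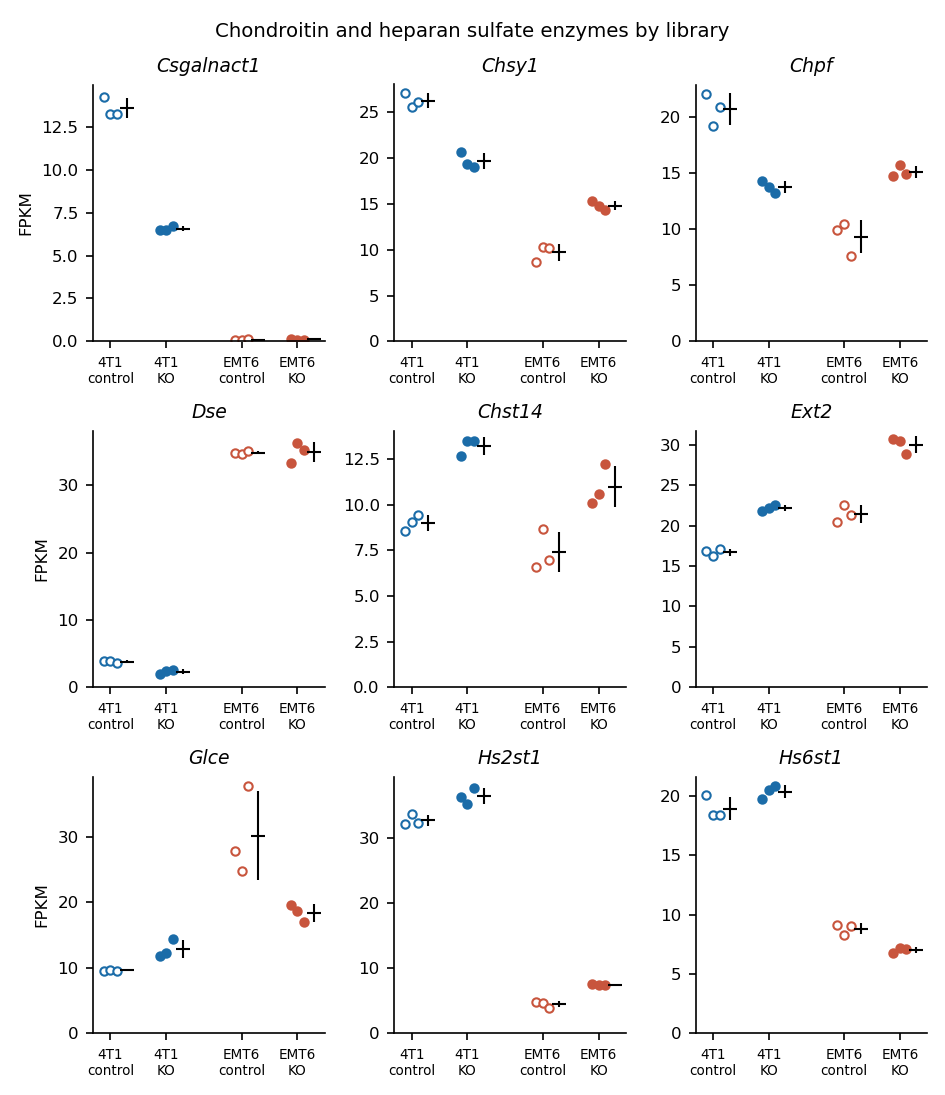
FPKM of 9 chondroitin and heparan enzymes in every library, with the mean and SD of each group of 3 (open points control, filled points KO; each axis starts at 0). Chsy1 and Chpf moved down in 4T1 and up in EMT6, Glce moved up in 4T1 and down in EMT6, and Chst14 and Ext2 moved up in both.

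Of the chondroitin sulfotransferases and epimerases, 1 rose and 2 fell in 4T1 among 6 tested (all genes: 28% and 29%), and 6 of 7 rose in EMT6 (all genes: 27.9%), of which Chst3 passed the filter through the KO group alone. Chst14, which sulfates dermatan stretches next to iduronic acid, had 8.56, 9.04 and 9.43 FPKM in 4T1 control and 12.66, 13.50 and 13.47 FPKM in 4T1 KO libraries, and 6.59, 8.66 and 6.95 FPKM in EMT6 control and 10.08, 10.60 and 12.25 FPKM in EMT6 KO libraries. The KO libraries were above all controls of their line, with changes of 0.48 ± 0.08 and 0.56 ± 0.12, and the difference between the lines was not called (0.09, adjusted p = 0.626). Dse, its partner epimerase, had 3.95, 3.92 and 3.59 FPKM in 4T1 control and 1.97, 2.46 and 2.58 FPKM in 4T1 KO libraries, a fall of 1.73-fold (-0.79 ± 0.11, adjusted p = 1.07e-06). In EMT6, where its level is far higher, Dse had 33.31, 36.25 and 35.27 FPKM in KO libraries, around the controls (0.01 ± 0.05, adjusted p = 0.935), and the difference was called (0.80 ± 0.10, adjusted p = 2.24e-07). Dsel had 3.03, 2.91 and 2.92 FPKM in 4T1 control and 3.27, 3.10 and 2.90 FPKM in 4T1 KO libraries, which overlapped (-0.02, adjusted p = 0.899). In EMT6 Dsel had 1.33, 1.07 and 1.44 FPKM in control and 2.06, 2.28 and 2.48 FPKM in KO libraries and rose 1.77-fold (0.83 ± 0.13, adjusted p = 5.98e-05).

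The chondroitin 4-O-sulfotransferases Chst11 and Chst12 rose by 0.42 each in EMT6. In 4T1 Chst11 was not called (0.06, adjusted p = 0.402), except with total counts as the only scale (0.14, adjusted p = 0.0471), and Chst12 fell by 0.26 on the log2 scale (adjusted p = 0.0145), a call lost without KO replicate 3 (0.0537), in DESeq2 (0.0558) and with total counts as the only scale (0.0955). Ust, the uronyl 2-O-sulfotransferase of chondroitin, rose by 0.47 in EMT6 and was not called in 4T1 (-0.15, adjusted p = 0.127). The 6-O-sulfotransferase genes were near the floor. Chst3 had 4, 1 and 2 counts in EMT6 control and 29, 26 and 20 counts in EMT6 KO libraries, a ratio of 10.1 after scaling by depth (95% counting interval 4.67 to 26.0), while Chst7 had 0 counts in all EMT6 controls and 9, 9 and 3 counts in the KO libraries, at least 6.60-fold higher than 3 counts over the group. Both stayed under 1 FPKM in every group, and these intervals cover counting error only.

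The heparan polymerase subunit Ext2 had 16.81, 16.23 and 17.09 FPKM in 4T1 control and 21.79, 22.21 and 22.50 FPKM in 4T1 KO libraries. In EMT6 it had 20.43, 22.60 and 21.33 FPKM in control and 30.69, 30.49 and 28.86 FPKM in KO libraries. It rose in both lines without overlap (0.33 ± 0.04 and 0.49 ± 0.06), and the difference missed the threshold (0.16, adjusted p = 0.0665), but was called without EMT6 control replicate 2 (0.21, adjusted p = 0.0167) or EMT6 KO replicate 3 (0.19, adjusted p = 0.0364). Its partner Ext1 rose in EMT6 (0.37, adjusted p = 1.96e-05) and was not called in 4T1 (-0.07, adjusted p = 0.213). Extl3, which adds the first N-acetylglucosamine and so commits a chain to heparan sulfate, moved little, by -0.16 in 4T1 and 0.18 in EMT6. Its 4T1 call (adjusted p = 0.0149) was lost without control replicate 2 (0.0766) or KO replicate 2 (0.103) and with total counts as the only scale (0.207), and its EMT6 call (0.0169) was lost without KO replicate 3 (0.0654). Extl2, a related transferase, fell by 0.34 on the log2 scale in 4T1 (adjusted p = 0.000455) and was not called in EMT6 (-0.06, adjusted p = 0.469). Extl1 had 3, 2 and 25 counts in EMT6 control and 0, 3 and 0 counts in EMT6 KO libraries, a ratio of 0.0943 (95% counting interval 0.0184 to 0.303) in which control replicate 3 held most of the control counts.

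Among the enzymes that modify heparan chains, Glce changed in opposite directions. It had 9.58, 9.69 and 9.56 FPKM in 4T1 control and 11.79, 12.32 and 14.42 FPKM in 4T1 KO libraries (0.34 ± 0.06, adjusted p = 4.82e-05). In EMT6 it had 27.89, 24.82 and 37.84 FPKM in control and 19.64, 18.65 and 16.97 FPKM in KO libraries (-0.71 ± 0.17, adjusted p = 0.0148). No groups of 1 line overlapped, and EMT6 control replicate 3 stood above its group: without it the EMT6 change was -0.52 ± 0.06 (adjusted p = 3.31e-07) and the difference -0.84 ± 0.09, against -1.04 ± 0.21 with it. The 4T1 call was lost when the spread was estimated over all 12 libraries (adjusted p = 0.0988). Ndst1, the N-deacetylase and N-sulfotransferase that opens the chain to later sulfation, had 17.28, 18.34 and 16.89 FPKM in 4T1 control and 14.20, 14.73 and 13.32 FPKM in 4T1 KO libraries, and 21.62, 21.40 and 19.56 FPKM in EMT6 control and 25.89, 25.82 and 25.72 FPKM in EMT6 KO libraries. It fell in 4T1 (-0.39 ± 0.05) and rose in EMT6 (0.31 ± 0.06), and the difference was 0.71 ± 0.08 (adjusted p = 1.44e-08). By annotated span Ndst1 overlaps Rps14, a ribosomal protein gene on the opposite strand with more counts than Ndst1. Shared exons were not checked, and reads from the 2 genes may not be separable. Ndst2 was not called in either line.

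Hs2st1 had 32.11, 33.65 and 32.21 FPKM in 4T1 control and 36.31, 35.23 and 37.70 FPKM in 4T1 KO libraries, a change that was not called (0.08, adjusted p = 0.141). It was called with total counts as the only scale (0.16, adjusted p = 0.00282) or without control replicate 2 (0.11, adjusted p = 0.0383). In EMT6 it had 4.83, 4.64 and 3.93 FPKM in control and 7.53, 7.48 and 7.42 FPKM in KO libraries and rose 1.68-fold (0.75 ± 0.08, adjusted p = 6.02e-07). It stayed well below the 4T1 level. Hs6st1, which adds the 6-O-sulfate, had 9.12, 8.27 and 9.04 FPKM in EMT6 control and 6.74, 7.16 and 7.12 FPKM in EMT6 KO libraries, a fall (-0.33 ± 0.07, adjusted p = 0.000778). In 4T1 it had 20.05, 18.35 and 18.35 FPKM in control and 19.73, 20.48 and 20.84 FPKM in KO libraries, which overlapped (0.03, adjusted p = 0.678), and the difference was called (-0.35, adjusted p = 0.000821). Glce and Hs6st1 were the 2 members called lower in EMT6 KO cells. Hs3st1, a 3-O-sulfotransferase, was not called in any comparison.

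The syndecan genes had differences in change of 0.49 to 2.18, all 4 called. Sdc1 (ENSMUSG00000020592) had 87.56, 85.32 and 85.18 FPKM in 4T1 control and 46.63, 46.52 and 48.75 FPKM in 4T1 KO libraries, a fall of 1.92-fold (-0.94 ± 0.04, adjusted p = 8.45e-15). In EMT6 it had 76.94, 82.38 and 79.95 FPKM in control and 89.51, 87.83 and 93.09 FPKM in KO libraries, a small rise (0.18 ± 0.05, adjusted p = 0.0107). The control cells of the lines were close in Sdc1 (-0.08, adjusted p = 0.135, but called without EMT6 control replicate 2, 0.0369, in DESeq2, 0.0491, and with total counts as the only scale, 0.0340), while the KO cells were at 47.3 ± 1.26 FPKM in 4T1 and 90.1 ± 2.69 FPKM in EMT6, and the difference in change, 1.13 ± 0.07, had the lowest adjusted p of the members (1.34e-13). Sdc3 (ENSMUSG00000025743) had 13.82, 14.74 and 15.72 FPKM in 4T1 control and 9.61, 8.68 and 9.0 FPKM in 4T1 KO libraries, and 22.79, 23.73 and 17.89 FPKM in EMT6 control and 53.69, 55.06 and 61.08 FPKM in EMT6 KO libraries. It fell 1.71-fold in 4T1 (-0.78 ± 0.06) and rose 2.64-fold in EMT6 (1.40 ± 0.10), with no overlap in either line and a difference of 2.18 ± 0.13 (adjusted p = 1.96e-09). In tissue Sdc1 is the main syndecan of epithelia, and in the same 4T1 KO libraries 4 of the 7 epithelial markers, Epcam, Krt8, Krt18 and Krt19, were lower, with Krt14 and Cdh1 not called and Krt5 at 0. Their part in the Sdc1 change was not tested.

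**Figure D4:**
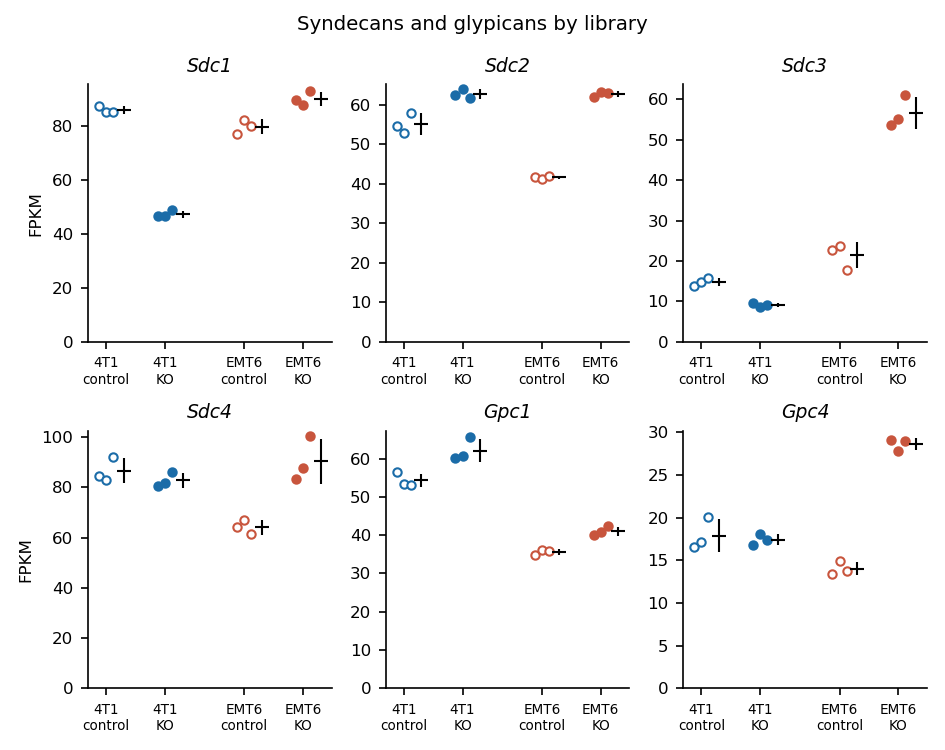
FPKM of 4 syndecans and 2 glypicans in every library, with the mean and SD of each group of 3 (open points control, filled points KO; each axis starts at 0). In 4T1 KO cells Sdc1 and Sdc3 were below all controls, Sdc2 and Gpc1 were above all controls, and Sdc4 and Gpc4 overlapped them. In EMT6 KO cells all 6 genes were above all controls. No share of all genes without overlap is given beside this, so it does not show how unusual these genes are.

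Sdc2 had 54.70, 52.78 and 58.09 FPKM in 4T1 control and 62.45, 64.05 and 61.68 FPKM in 4T1 KO libraries, a change at the edge of the threshold (0.11 ± 0.04, adjusted p = 0.0464). That call was lost without control replicate 1 (adjusted p = 0.128), control replicate 2 (0.119), KO replicate 1 (0.109) or KO replicate 2 (0.184), in DESeq2 (0.117), without the low-count filter (0.258) and in the fit of all 12 libraries (0.0702). In EMT6 Sdc2 had 41.71, 41.37 and 42.05 FPKM in control and 62.05, 63.34 and 62.91 FPKM in KO libraries. It rose 1.51-fold (0.59 ± 0.05, adjusted p = 6.17e-08). The KO cells were at 62.7 ± 1.21 FPKM in 4T1 and 62.8 ± 0.657 FPKM in EMT6, a scale set by library totals alone. The trimmed-mean scale factors differed, at 1.04 to 1.06 in 4T1 KO and 0.967 to 0.977 in EMT6 KO libraries. A like level is therefore not shown. Sdc4 had 84.57, 82.79 and 92.18 FPKM in 4T1 control and 80.51, 81.73 and 86.00 FPKM in 4T1 KO libraries, which overlapped (-0.14 ± 0.05, adjusted p = 0.0109). Its 4T1 call was lost without control replicate 3 (0.0580) or KO replicate 2 (0.0517) and with total counts as the only scale (-0.06, adjusted p = 0.264). In EMT6 Sdc4 had 64.05, 67.14 and 61.23 FPKM in control and 83.24, 87.48 and 100.41 FPKM in KO libraries and rose 1.41-fold (0.50 ± 0.07, adjusted p = 1.60e-05).

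Of the glypicans, Gpc4 had 13.45, 14.89 and 13.69 FPKM in EMT6 control and 29.13, 27.83 and 28.95 FPKM in EMT6 KO libraries and rose 2.04-fold (1.03 ± 0.07, adjusted p = 3.03e-09). In 4T1 it had 16.51, 17.15 and 20.04 FPKM in control and 16.80, 18.10 and 17.37 FPKM in KO libraries, which overlapped (-0.11, adjusted p = 0.156), and the difference was 1.15 ± 0.10 (adjusted p = 1.42e-10). Gpc1 had 56.39, 53.33 and 53.21 FPKM in 4T1 control and 60.07, 60.61 and 65.69 FPKM in 4T1 KO libraries, and 34.86, 36.24 and 35.87 FPKM in EMT6 control and 40.12, 40.73 and 42.39 FPKM in EMT6 KO libraries. Its changes were 0.11 ± 0.04 and 0.21 ± 0.05, and the difference between the lines was not called (0.10, adjusted p = 0.254). The 4T1 call of Gpc1 (adjusted p = 0.0303) was lost without control replicate 3 (0.131), KO replicate 2 (0.0508) or KO replicate 3 (0.178), in DESeq2 (0.0767), without the low-count filter (0.181) and in the fit of all 12 libraries (0.0582). Gpc6, seen in EMT6 alone, had 5.17, 4.73 and 5.07 FPKM in control and 6.80, 7.13 and 7.45 FPKM in KO libraries (0.52 ± 0.07, adjusted p = 1.52e-05).

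Genes around the pathway were read from 4 further lists. Of 15 genes that supply sugar nucleotides and the sulfate donor PAPS, 3 were higher and 4 lower of 14 tested in 4T1, and 7 of 15 were higher in EMT6, where the lowest change was -0.15. The shares of all genes called were 28% higher and 29% lower in 4T1 and 27.9% and 28.2% in EMT6, and the 4T1 counts of this list were near them. In EMT6 KO cells the PAPS transporter Slc35b2 rose from 10.9 ± 1.20 to 20.6 ± 0.259 FPKM (0.92 ± 0.08), the Golgi phosphatase Bpnt2, which clears the spent donor, from 13.6 ± 0.781 to 23.6 ± 0.801 FPKM (0.79 ± 0.06), and the sulfate transporter Slc26a2 from 1.32 ± 0.0681 to 2.24 ± 0.182 FPKM (0.77 ± 0.09). In 4T1 KO cells the cytosolic phosphatase Bpnt1 fell from 26.5 ± 1.26 to 18.5 ± 0.821 FPKM (-0.60 ± 0.06), Bpnt2 changed by -0.21, and the PAPS synthase Papss1 rose from 39.5 ± 1.46 to 52.1 ± 2.89 FPKM (0.32 ± 0.05). The other PAPS synthase, Papss2, had 0 counts in the 4T1 control libraries and was at least 389-fold higher in EMT6 control cells.

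Of 26 other core proteins, 7 were higher and 1 lower of 9 tested in 4T1, and 4 were higher and 4 lower of 11 in EMT6, beside the same shares of all genes. Tgfbr3 (betaglycan) rose from 1.77 ± 0.0850 to 3.67 ± 0.284 FPKM in 4T1 (0.97 ± 0.10) and fell from 23.8 ± 1.74 to 11.3 ± 0.240 FPKM in EMT6 (-1.07 ± 0.06). In 4T1 the matrix core Hspg2 (perlecan) rose from 42.4 ± 4.79 to 74.8 ± 4.97 FPKM, and Cd44, the hyaluronan receptor that can carry chains, fell from 150 ± 6.89 to 100 ± 3.29 FPKM (-0.67 ± 0.05). In EMT6 the granule core Srgn (serglycin) fell from 2.18 ± 0.717 to 0.180 ± 0.0872 FPKM, and Cd74, whose product can carry a chondroitin sulfate chain, rose from 1.53 ± 0.876 to 3.81 ± 0.175 FPKM.

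Of 18 genes for extracellular editing and lysosomal breakdown, 4 were higher and 6 lower of 16 tested in 4T1, and 4 were higher and 5 lower of 15 in EMT6, beside the same shares of all genes. Hpse (heparanase), which cuts heparan sulfate outside the cell and in lysosomes, fell from 15.4 ± 0.346 to 5.01 ± 0.576 FPKM in EMT6 (-1.62 ± 0.09, adjusted p = 1.73e-10), and in 4T1 it was too low to test. Ids (iduronate sulfatase) rose in both lines, by 0.42 ± 0.07 in 4T1 and 0.93 ± 0.06 in EMT6. Gusb (beta-glucuronidase) fell in 4T1 (-0.67 ± 0.04) and rose in EMT6 (0.52). Hyal1, a hyaluronidase, rose in 4T1 (1.17 ± 0.28) and fell in EMT6 (-0.86 ± 0.18). Sulf2, an extracellular sulfatase that removes 6-O-sulfate from heparan sulfate, was under the mean level set for naming and was added after its values were seen: it fell 3.42-fold in 4T1, from 1.41 ± 0.161 to 0.437 ± 0.0289 FPKM (-1.78 ± 0.17, adjusted p = 3.46e-09), and was too low to test in EMT6. Of 15 relatives of the listed enzymes and glypicans, 2 could be tested in 4T1, of which 1 was higher, and 3 in EMT6, of which 2 were higher. In EMT6 Chst2, a sulfotransferase of N-acetylglucosamine, rose from 1.49 ± 0.226 to 2.26 ± 0.105 FPKM (0.61 ± 0.12). Chst8 changed more in EMT6, from 0.2 ± 0.0361 to 1.16 ± 0.13 FPKM (2.52 ± 0.2, adjusted p = 2.99e-08). Like Sulf2, it was under the mean level set for naming and was added after its values were seen.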

How the data were processed

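The 12 libraries are poly(A) RNA-seq of 4T1 and EMT6 cells, 3 per group. The authors deposited, per line, whole-number read counts per gene and FPKM values. The submitters' processing notes name cutadapt 1.9.1, HISAT2 2.2.1, HTSeq 0.6.1 and DESeq2 with the build GRCm38, and give no strand setting. The tables' gene coordinates name no build, and 0 of the 41 members have the start and end of GENCODE M21 (GRCm38), so none are printed. The deposited FPKM equal counts per kilobase of the tables' exonic length and of library total, within 0.01 for all 680292 values.

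Counts were tested with edgeR 4.0.16 (R 4.3.3): filterByExpr, TMM scaling and the robust quasi-likelihood test over all genes, per line for KO against control, and over the 12 libraries for the difference in change and for the control cells. Alternatives were DESeq2 1.42.0, DESeq2's size factors, total counts only, no low-count filter, a replicate block, a fit of all 12 libraries, and each library left out. P-values measure the spread between libraries, which may be technical, since the labels do not say that they come from separate cultures. The script was tested on simulated counts, where its share of false calls, averaged over runs, exceeded the nominal 5% in every comparison and the difference in change missed more of the small changes than the other comparisons did. A first run missed the recovery and false-call limits set for it, and the limits were then relaxed, so calls just under the threshold are less sure than their adjusted p says. The members and lists were chosen with earlier results of these data known.

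Values per library were given for the 6 largest called increases and decreases per line among members with a mean of at least 1 FPKM, for members with a fitted 2-fold change that reached 1 FPKM in a group, for the 6 members of lowest adjusted p for the difference and for the syndecans. Of the other lists, up to 3 called genes per line were named. Genes outside this rule, named for low counts, for a gap between the control cells or to close a role, were chosen after their values were seen. No 2 libraries were identical.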

Additional observations from a re-analysis of the deposited data

Results flagged for a closer look

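By the interaction term of edgeR's fit of all 12 libraries, the KO change differed between the lines for 27 of 35 members tested. Gpc6 is among the 35, but with 0 counts in all 4T1 libraries its difference could not be estimated. Of the 27, 24 had a higher change in EMT6, beside 26.8% of all genes tested, and 3 a lower one, beside 26.6%. The differences are given here as the log2 change of EMT6 minus that of 4T1. Among linker enzymes the differences were 1.97 for B3galt6, 0.81 for B4galt7, 0.76 for Xylt2, 0.71 for Fam20b and 0.48 for B3gat3. Among chondroitin enzymes they were 1.42 for Csgalnact1, 1.38 for Chpf, 1.11 for Chsy1, 0.85 for Dsel, 0.84 for Chpf2, 0.80 for Dse, 0.68 for Chst12, 0.63 for Ust and 0.37 for Chst11. Among heparan enzymes they were 0.71 for Ndst1, 0.68 for Hs2st1, 0.45 for Ext1, 0.35 for Extl3 and 0.28 for Extl2, with negative differences of -0.35 for Hs6st1, -1.04 for Glce and -3.83 for Extl1. Among cores they were 2.18 for Sdc3, 1.15 for Gpc4, 1.13 for Sdc1, 0.65 for Sdc4 and 0.49 for Sdc2.

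The values for Extl1 and Csgalnact1 rest on few counts in EMT6. The difference of Extl1 was -1.99 (adjusted p = 0.163) without EMT6 control replicate 3, and that of Csgalnact1 was 1.00 (adjusted p = 0.0800) without EMT6 KO replicate 1. The difference of Extl2 lost its call without 4T1 control replicate 1 (adjusted p = 0.0875), 4T1 KO replicate 1 (0.0506) or EMT6 KO replicate 1 (0.0607), and with total counts as the only scale (0.114). Chst3, not among the 27, passed the threshold without 4T1 KO replicate 2 (adjusted p = 0.0204) or EMT6 control replicate 1 (0.0411).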

How the results depend on the processing

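The number of members called higher in 4T1, 5, was the least stable count. It was 8 with total counts only, 3 without the low-count filter, 3 with DESeq2 and 2 in the fit of all 12 libraries, and it lay between 3 and 5 with each library left out, at 3 without 4T1 KO replicate 2. The cause was not tested. The number of chondroitin enzymes among them went from 1 to 2 with total counts only, and that of heparan enzymes from 2 to 1 in the fit of all 12 libraries. With each library left out, members called lower in 4T1 ranged from 12 to 14, higher in EMT6 from 25 to 27, and with a higher change in EMT6 from 22 to 25. No member reversed direction past the threshold. Replicate numbers did not pair the libraries: deviations of libraries with the same number correlated between -0.10 and 0.01, and 0 of 6 libraries of either line correlated best with their own number. With the replicate block, 5 members were called higher and 14 lower in 4T1 and 26 higher and 2 lower in EMT6, as without it. Between the control cells the block as coded compared the fitted levels at replicate 1 of each line, not the means over replicates. It therefore cannot show whether that comparison depends on blocking. In this setting the members called higher went from 13 to 10, the chondroitin enzymes among them from 4 to 2, and the members called lower from 18 to 16. Csgalnact2 (adjusted p = 0.0729) was among the calls lost, and the chondroitin median was -0.32 in place of -0.61. Counts cover 3 libraries a group, and transcripts do not measure chains, sulfation or protein.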
